A study of Drosophila melanogaster with 3 samples.

Results

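The summits described here lie just inside transcription units: 177 of the 5357 reproducible binding summits of the nuclear receptor Hr3 in fly embryos were downstream of the nearest promoter (3.30%, 95% exact binomial interval 2.84 to 3.82). A summit, the base where the authors' peak caller placed a peak's maximum, was included when every transcription start site (TSS) of a protein-coding gene within 500 bp was on one strand and the summit lay past the nearest of them. The summits came from the authors' reproducible peak list on the dm6 assembly and the TSSs from all transcripts of the Ensembl annotation BDGP6.54, release 115. By the same rule 1335 summits lay upstream of the nearest TSS, 5 lay exactly at it, 1100 had TSSs on both strands and 2740 had no protein-coding TSS within 500 bp. Downstream summits made up 11.7% of the summits placed on one side of a single-stranded promoter. They belonged to 173 nearest genes, 7 of which (CG12910, CG18622, Eip75B, ced-6, milt, tapas and woc) held 2 each. At CG18622, milt and woc both summits share one TSS, and at CG18622 the same peak of replicate 1 covers both.

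The data were chromatin immunoprecipitation followed by sequencing (ChIP-seq) on whole Drosophila melanogaster embryos of mixed sex aged 0 to 24 h, in 1 group of 3 biological replicates. The embryos came from a transgenic line that stably expresses Hr3 with green fluorescent protein at its C-terminus, and the tagged protein was precipitated with an antibody against GFP. The labels give no promoter or insertion site for the transgene, no other genotype and no other treatment, and pooling whole embryos over a day mixes all tissues and stages. The files hold peaks and no reads, so the sequencing depth is unknown, and the fragments of 200 to 800 bp limit how finely a summit can be placed.

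Hr3, also named Hr46, is a nuclear receptor related to the ROR family of mammals and is part of the transcriptional cascade set off by the steroid hormone ecdysone. It binds DNA as a monomer at a response element made of an A/T-rich stretch followed by AGGTCA or GGGTCA. Past the TSS a promoter passes into the untranslated part of the first exon, which in most genes is followed either by coding sequence or by the first intron. Introns near the 5′ end can hold regulatory DNA and the start sites of shorter transcripts.

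The windows below are those of the strongest downstream summits whose sequence is given, 6 in untranslated exon sequence and 5 in introns, and show the DNA at the summit. Sequence is read 5′ to 3′ along the gene from dm6, and capitals mark runs of 6 or more A or T. The exon windows are held to 30 bases around the summit, which is 78 bp downstream of the TSS at PNPase, 43 at CG9399, 393 at ph-p, 51 at lmgB/lmgA, 29 at CG4497 and 92 at Smg5. Neither the lmgB/lmgA nor the Smg5 window holds such a run.
PNPase, chr3R:31404647-31404676, minus strand: caagaaacgtacagggcTTTTATTgtaaga
CG9399, chr3R:9574153-9574182, minus strand: agctgttgcggtgcTAAAATTATTTTTATA
ph-p, chrX:2137963-2137992, minus strand: ggATATTTgaaacATTAATAAAcTTAAAAc
lmgB/lmgA, chr2L:8528552-8528581, minus strand: tttactataacaggtcatcccaagtcgcac
CG4497, chr2L:7194544-7194573, minus strand: tatcattggcATTATActacTAAATTgtct
Smg5, chr2L:13904554-13904583, minus strand: atttagcagccattgttccagcccttctga

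The intron windows give 101 bases centred on the summit, with the same marking, at CG31612 (456 bp downstream of the TSS), Ptp4E (407 bp), rudhira (237 bp), CG43116 (399 bp) and scramb2 (365 bp). A and T made up 65.3% to 71.3% of these 5 windows.
CG31612, chr2L:21794941-21795041, minus strand: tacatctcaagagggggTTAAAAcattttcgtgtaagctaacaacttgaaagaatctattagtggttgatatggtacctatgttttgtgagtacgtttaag
Ptp4E, chrX:4939938-4940038, plus strand: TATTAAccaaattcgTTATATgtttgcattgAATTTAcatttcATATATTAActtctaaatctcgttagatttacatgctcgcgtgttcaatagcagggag
rudhira, chrX:11818524-11818624, plus strand: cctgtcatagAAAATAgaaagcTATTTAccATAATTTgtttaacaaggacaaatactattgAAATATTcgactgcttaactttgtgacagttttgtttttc
CG43116, chr3R:25996547-25996647, minus strand: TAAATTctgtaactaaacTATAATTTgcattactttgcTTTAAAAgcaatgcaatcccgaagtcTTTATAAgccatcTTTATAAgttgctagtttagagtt
scramb2, chr3L:3046397-3046497, minus strand: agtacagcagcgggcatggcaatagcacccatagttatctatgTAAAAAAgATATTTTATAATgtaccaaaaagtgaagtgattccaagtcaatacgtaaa

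All replicates kept the side of the TSS for most summits over 100 bp in and for fewer of those near it. The authors' relaxed peaks of the single replicates gave a summit of their own for 175, 177 and 174 of the 177 in replicates 1, 2 and 3. These lay downstream of the same TSS in 160, 164 and 162 cases. All 3 replicates placed the summit downstream for 145 of the 177 (81.9%, 95% exact binomial interval 75.4 to 87.3). Over 100 bp from the TSS this held for 111 of 116 summits (95.7%), within 100 bp for 34 of 61 (55.7%), and within 25 bp for 9 of 26. At 16 summits 1 replicate, at 10 summits 2 replicates and at 1 summit all 3 replicates placed the maximum at the TSS or upstream of it, and the other 5 had no peak in 1 or more replicates. The replicate summits lay a median of 25.5, 10.5 and 14 bp from the reproducible one in replicates 1, 2 and 3, with 90th percentiles of 64.9, 60.9 and 55.9 bp. Shifts of that size seldom change the side of a summit over 100 bp in. The reproducible list was made from the same replicates, and only replicate peaks over the reproducible summit were taken. The agreement is therefore not an independent check of the side.

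Downstream summits gathered close to the TSS and again towards the far end of the window, with few between, whereas upstream summits peaked between 101 and 200 bp. Of the 177, 61 lay within 100 bp of the TSS, 41 at 101 to 200 bp, 16 at 201 to 300 bp, 23 at 301 to 400 bp and 36 at 401 to 500 bp. The first 50 bp held 23.7% of the downstream summits, against 8.61% of the upstream ones, and the last 50 bp held 9.60% of the downstream summits, against 4.49% of the upstream ones. The median distance was 162 bp (quartiles 58 and 378) for downstream summits and 181 bp (quartiles 105 and 300.5) for upstream summits. The same rule was applied to the 5357 strongest relaxed peaks of each replicate, as many as the reproducible list holds. It gave 228, 177 and 181 downstream summits in replicates 1, 2 and 3, with median distances of 134.5, 163 and 154 bp. Their first 50 bp held 27.6%, 23.2% and 24.9% of them and their last 50 bp held 10.1%, 12.4% and 10.5%. Replicate 1 thus had the most downstream summits and the shortest median distance, and all 3 replicates had more of them in the last 50 bp than at 201 to 250 bp, where they held 3.95%, 6.78% and 5.52%.

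**Figure D1:**
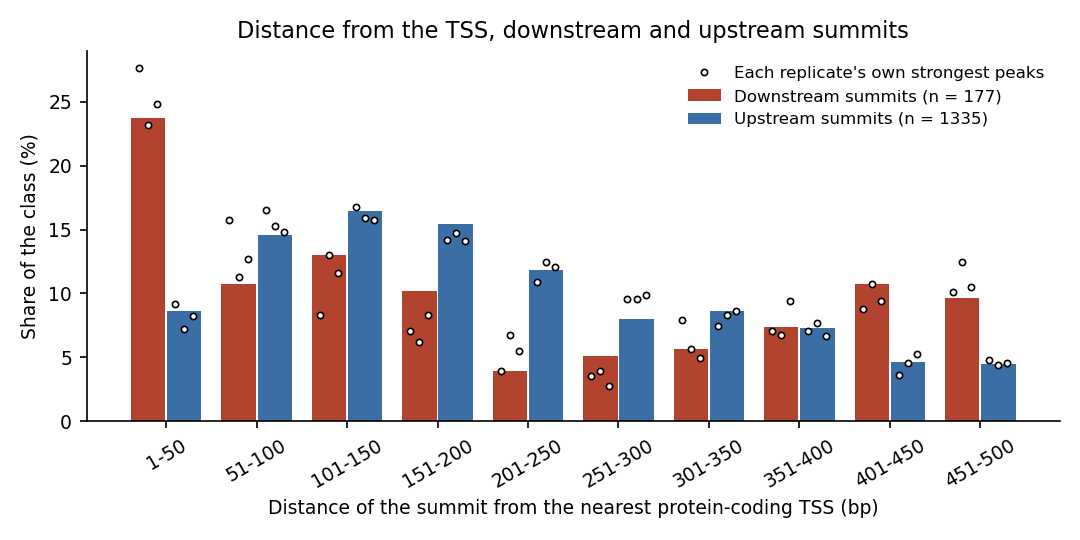
Distance of the summit from the nearest protein-coding TSS in classes of 50 bp (horizontal axis) and the share of each class of summit in percent (vertical axis), with downstream summits left and upstream summits right; open circles are the 3 replicates' own strongest peaks. The first class holds 23.7% of downstream and 8.61% of upstream summits, and at 401 to 500 bp the downstream bars stand above the upstream ones again.

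The summit base of the 177 was in an exon outside coding sequence in 93 cases (52.5%, interval 44.9 to 60.1), in an intron in 80 (45.2%, 37.7 to 52.8) and in coding sequence in 4 (2.26%, 0.619 to 5.68). Replicates 1, 2 and 3 had 37.3%, 46.9% and 39.8% of their own downstream summits in introns and 3.07%, 1.69% and 0.552% in coding sequence. Exon summits were near the TSS, at a median of 66 bp (2 to 496 bp). Intron summits were further in, at a median of 368.5 bp (65 to 490 bp), and all 80 lay past the first exon of a transcript from the nearest TSS, a median of 180.5 bp beyond its end. The intron share follows the promoter width, at 15.9% with 200 bp and 70.6% with 1000 bp.

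Coding sequence was nearly empty of these summits although it is common at the same distances from all TSSs. Over all 19253 protein-coding TSSs, the bases at the same distances as the 177 summits were coding in 34.0% of cases, in an intron in 17.2% and in another part of an exon in 48.4%. The downstream summits, at 2.26%, 45.2% and 52.5%, were therefore below these shares in coding sequence and above them in introns. These TSSs include those of genes without a summit and promoters with TSSs on both strands. The 173 nearest genes had a median span of 4628 bp, against 2166 bp for all protein-coding genes. Whether the structure of these genes accounts for part of the difference was not tested. Between 401 and 500 bp, 31 of 36 downstream summits were in introns (86.1%) and none in coding sequence, whereas 450 bp from all TSSs the annotation holds introns at 31.8% and coding sequence at 49.2%. With 0 of 36 a share of coding summits up to 8.33% would still be allowed. The 3 strongest coding summits seen in all replicates were those of uri (58 bp, which encodes a prefoldin-like protein), Muted/CG7071 (46 bp) and Got2 (82 bp, a mitochondrial aspartate aminotransferase). None was strong. Their mean signals were 1.03, 0.364 and 0.773, with each replicate's median over the reproducible peaks as 1. Another summit, 153 bp upstream of the Muted/CG7071 TSS, had 2.88 on that scale.

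**Figure D2:**
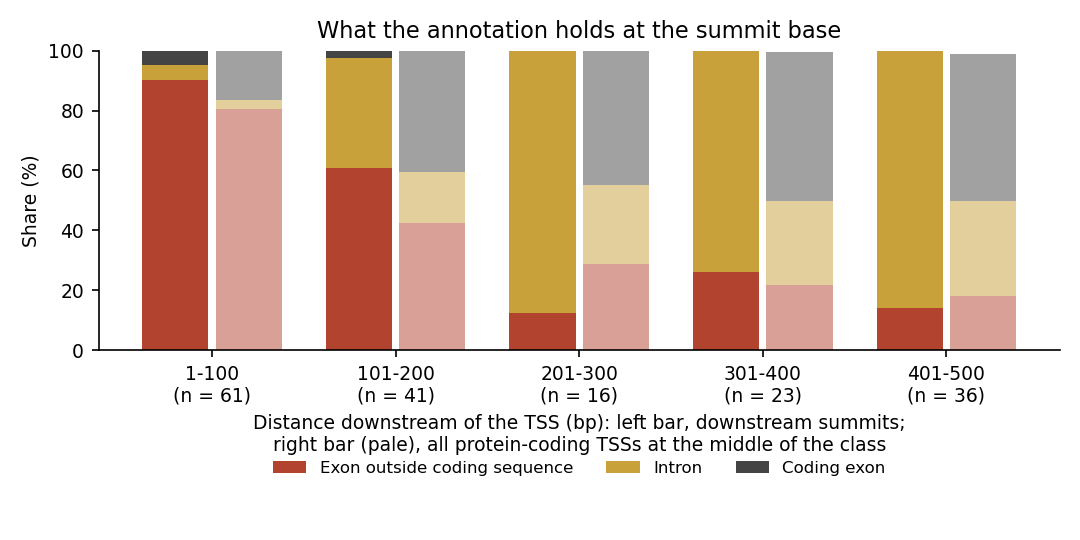
What the annotation holds at the summit base (share in percent, vertical axis) by distance downstream of the TSS (horizontal axis): left bars, the downstream summits; pale right bars, the base at the middle of each distance class for all 19253 protein-coding TSSs. Coding sequence, 49.2% of the pale bar at 401 to 500 bp, is absent from the bars of the summits beyond 200 bp.

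Over the whole 500 bp downstream summits were less poor in GC than upstream ones, but not in every distance class, and those in exons were less poor than those in introns. The 101 bp around the summit averaged 36.4% GC at the 177 downstream summits and 33.2% at the 1335 upstream ones. From the replicates' own peaks the difference was 3.56, 2.42 and 2.55 percentage points in replicates 1, 2 and 3 (mean 2.84 ± 0.63, SD, n = 3), higher in 3 of 3 replicates. In the reproducible list the difference of 3.22 points was 1.5 with promoters of 1000 bp and 1.96 for the downstream summits that all replicates put on that side. By distance, the means at downstream and upstream summits were 40.3% and 39.6% at 1 to 100 bp, 36.9% and 31.2% at 101 to 200 bp, 31.6% and 30.9% at 201 to 300 bp, 35.1% and 31.1% at 301 to 400 bp, and 32.3% and 32.4% at 401 to 500 bp. The exact two-sided sign-flip permutation test over the 3 replicates gave p = 0.25, the smallest it can give, so no call is possible with it here or below. Exon summits averaged 40.0% GC and intron summits 32.0%, a difference of 7.60, 4.84 and 5.59 percentage points in the replicates' own peaks (exact permutation p = 0.25).

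The intron summits were also low in GC against both the mirror point and introns at all TSSs. Low GC is not particular to them. Their mean of 32.0% was close to the 32.3% of all 5357 summits. Summits with no protein-coding TSS had 32.0% and those with TSSs on both strands 31.1%. The exon summits over 100 bp in were lower mainly against exons at all TSSs. At the mirror point, the same distance upstream of the same TSS, the intron summits over 100 bp in had 38.6% GC, against 32.1% at the summit, and the summit was the lower one at 53 of 77 (68.8%, interval 57.3 to 78.9). The exon summits over 100 bp in had 38.6% GC at the summit and 40.0% at the mirror point, with the summit lower at 19 of 38. Upstream summits over 100 bp away had 31.3% GC at the summit and 45.1% at their mirror point downstream, and 881 of 1025 were lower at the summit (86.0%). Over all TSSs, too, the upstream side was lower in GC. Its mean was 37.1% 150 bp upstream, against 46.2% 150 bp downstream (51 bp windows). No share of all TSSs stands beside the mirror counts, so the 881 of 1025 is not read as particular to summits. Among summits 401 to 500 bp in, the 31 in introns averaged 31.8% GC and 27 of them lay below 39.3%, the mean of the 6124 TSSs with an intron base at 450 bp.

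**Figure D3:**
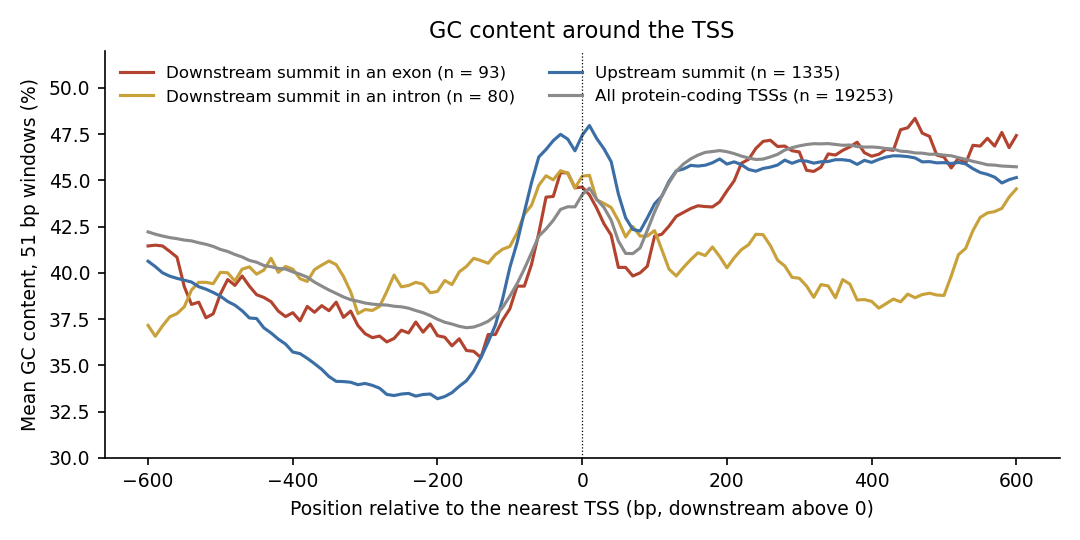
Mean GC content in 51 bp windows (percent, vertical axis, from 30%) against the position relative to the nearest TSS (bp, horizontal axis) for TSSs with a downstream summit in an exon, with one in an intron, with an upstream summit, and for all protein-coding TSSs. At 400 bp downstream the line of the intron summits is at 38.5% while that of all TSSs is at 46.8%. The line of all TSSs includes coding sequence, 49.2% of the bases at 450 bp. The 6124 TSSs with an intron base at 450 bp average 39.3% (101 bp windows), close to the line of the intron summits. The line of the upstream summits has its lowest point, 33.2%, 200 bp upstream.

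Peak strength at downstream summits was close to that at upstream summits and lower than at promoters with TSSs on both strands in every replicate. Strength is given as relative signal: the authors' signal value of the replicate's relaxed peak over the summit, divided by the median of that replicate over the reproducible peaks. The median over downstream summits was 1.06, 0.993 and 0.999 in replicates 1, 2 and 3. Upstream summits had medians of 1.05, 1.05 and 1.04, so the log2 ratio of downstream to upstream was 0.01, -0.09 and -0.06 (mean -0.045 ± 0.048, SD, n = 3, exact permutation p = 0.5). That mean was 0.042 with promoters of 200 bp and -0.153 with the stronger 50% of the list. Against promoters with TSSs on both strands, whose medians were 1.18, 1.23 and 1.18, the log2 ratio was -0.16, -0.31 and -0.24 (mean -0.23 ± 0.08), lower in 3 of 3 replicates (exact permutation p = 0.25). Against summits with no protein-coding TSS, whose medians were 0.936, 0.914 and 0.938, it was 0.17, 0.12 and 0.09 (mean 0.13 ± 0.04), higher in 3 of 3 (exact permutation p = 0.25).

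Detection in the single replicates was close to that of the whole list. A relaxed peak lay over the summit in all 3 replicates for 172 of 177 downstream summits (97.2%), against 98.1% of all 5357. Of the 177, 118 (66.7%) were covered by one of the strongest peaks of all 3 replicates, against 69% of all summits. The relative signal was above 1 in all 3 replicates for 62 of the 177 (35.0%), against 543 of the 1335 upstream summits (40.7%) and 37.2% of all summits. The coefficient of variation over the 3 replicates had a median of 18.7% for the downstream summits and 16.5% for all. Among the 100 strongest reproducible peaks 3 were downstream summits (3.00%) and 31 were upstream ones.

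**Figure D4:**
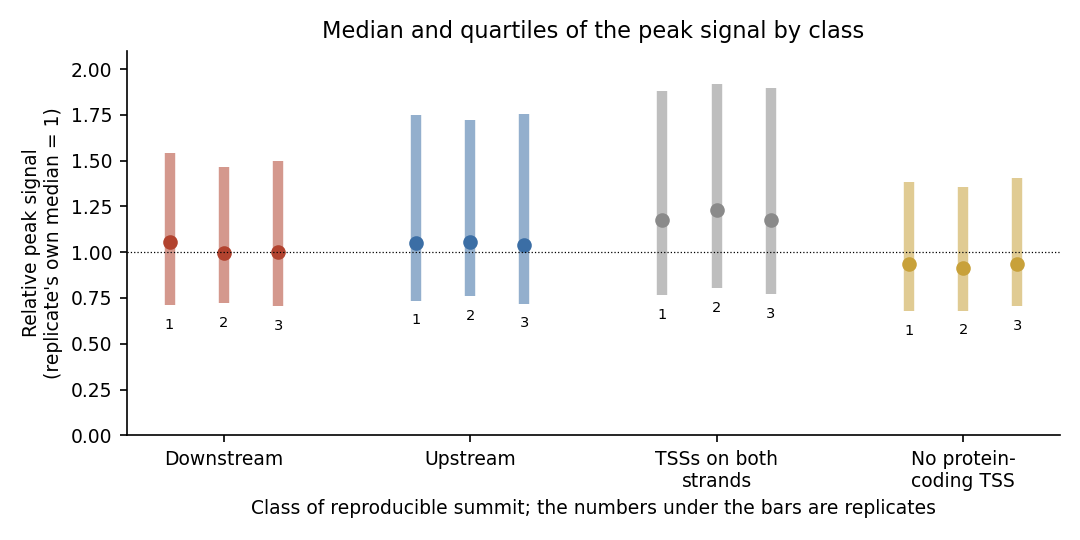
Relative peak signal (vertical axis, each replicate's own median over the reproducible peaks is 1) for the 4 classes of summit (horizontal axis); dots are medians, bars run from the lower to the upper quartile, and the numbers name the replicates. Downstream medians, 1.06, 0.993 and 0.999, lie below those of promoters with TSSs on both strands in all 3 replicates and above those of summits with no protein-coding TSS.

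The 25 strongest downstream summits present in all replicates were led by 3 exon summits close to the TSS. PNPase, which encodes a mitochondrial exoribonuclease, had relative signals of 9.48, 9.10 and 9.14 in replicates 1, 2 and 3 and ranked 15 in the whole list. GstE13, which encodes a glutathione S-transferase, had 6.59, 7.73 and 7.02. CG9399 had 4.37, 5.28 and 5.44. These 3 lay 78, 68 and 43 bp past the TSS in the reproducible list, and at 63, 77 and 63 bp, at 41, 75 and 66 bp, and at 32, 43 and 41 bp in the replicates, so every replicate put them downstream. The ranges of PNPase and GstE13 did not overlap each other or those of the rest.

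Further in, the strongest summits were those of CG31612 and the Polycomb gene ph-p. CG31612, in an intron 456 bp from the TSS, had 4.26, 4.38 and 4.23. The exon summit of ph-p, which encodes a subunit of a Polycomb repressive complex, had 5.32, 4.19 and 3.54 at 393 bp, the widest spread of the 25 (mean 4.35 ± 0.90, SD, n = 3). Ptp4E, which encodes a receptor tyrosine phosphatase, had 4.00, 3.01 and 3.31 in an intron at 407 bp, and rudhira had 2.55, 3.12 and 2.56 in an intron at 237 bp. These 4 overlapped in part, so their order is not firm beyond the replicate spread.

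The remaining members of the 25 had mean relative signals from 1.97 to 3.66 and lay in exons or introns. Exon summits included lmgB/lmgA (4.45, 3.19 and 3.33 in replicates 1, 2 and 3), a pair of genes with TSSs on one strand near the summit, and Smg5, a factor of nonsense-mediated mRNA decay (3.16, 3.70 and 3.23). Intron summits included sqh, which encodes the regulatory light chain of non-muscle myosin II (2.64, 2.24 and 2.24), and scramb2, a phospholipid scramblase gene (2.72, 2.45 and 3.05). Ada2b, a subunit of histone acetyltransferase complexes, had 2.15, 2.18 and 1.97 in an intron. The cation channel gene Trpm had 2.27, 2.17 and 2.13 in an exon, the smallest SD among the 25. CG4497, Eip75B and scny, at 29, 23 and 33 bp, were the members of the 25 with a summit upstream of the TSS in 1 or more replicates.

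**Figure D5:**
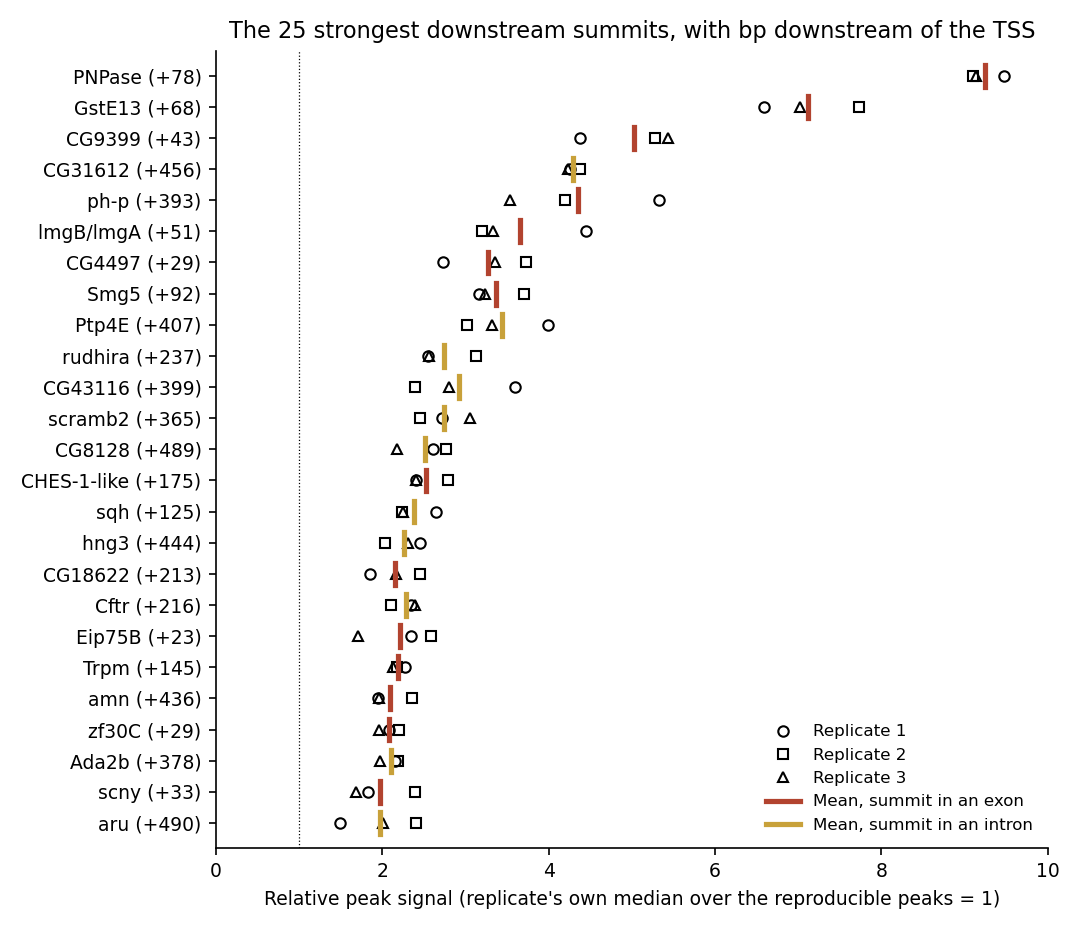
Relative peak signal (horizontal axis, replicate's own median is 1) of the 25 strongest downstream summits (vertical axis, gene and bp downstream of the TSS); open symbols are the 3 replicates and vertical bars their mean, coloured by exon or intron. PNPase stands at 9.10 to 9.48 in the 3 replicates, and all 25 lie above 1 in every replicate.

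No match to 1 strict form of the Hr3 response element lay within 100 bp of any downstream summit. The form searched, on either strand, was A, then A or T, any base, T, and AGGTCA or GGGTCA. The element was found at 0 of 177 downstream summits, which allows a share of up to 1.69%, and at 18 of 1335 upstream summits (1.35%, interval 0.801 to 2.12). The difference is within that limit, so it was not detectable with this number of summits, and the replicates' own lists had 2, 0 and 1 downstream summits with the element against 13, 13 and 15 upstream ones. Within 100 bp of all protein-coding TSSs it stands at 0.441%. The core alone, AGGTCA or GGGTCA on either strand, was at 17 downstream summits (9.60%) and 118 upstream ones (8.84%), against 6.45% of all TSSs. Each full response element also contains this core. Cores after a looser A/T-rich stretch were not counted apart.

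Of the other elements, the CTCF core showed the widest gap between the sides in the replicates' own lists. This core, AG followed by A or G, then G or T, then GGCGC, is bound by the insulator protein CTCF. It lay within 100 bp of 2 downstream summits (1.13%, interval 0.137 to 4.02) and 43 upstream ones (3.22%, 2.34 to 4.31), against 0.530% of all TSSs. Promoters with TSSs on both strands had 0.818%, so a low share is not particular to downstream summits. In the replicates' own lists the core was at only 1, 0 and 1 downstream summits (0.439%, 0% and 0.552%). Upstream its share was 2.76%, 2.98% and 2.97%. The difference was -2.57 ± 0.36 percentage points (SD, n = 3), lower in 3 of 3 replicates (exact permutation p = 0.25). Ohler 6, Ohler 7 and GAGAGAG, given below, were also lower in 3 of 3, as were the full response element and CACGTG. The 2 genes with the core were Smg5 and CTCF itself, at whose summit 169 bp in the core lay 18 bp away. The window is printed because it is the gene of the factor that binds this element, with the core, here on the other strand, in capitals.
CTCF, chr3L:7356508-7356537, minus strand: gaaatcgataaGCGCCCTCTtcgggatccc

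The DNA replication-related element (DRE), TATCGATA, a palindrome common at housekeeping promoters, was near 9 downstream summits (5.08%) and 81 upstream ones (6.07%), against 6.45% of all TSSs. The replicates' own lists gave 7.89%, 4.52% and 4.42% downstream and 6.11%, 5.68% and 5.17% upstream, so the sign differed between replicates (exact permutation p = 1). In the reproducible list the difference was -0.983 percentage points, and -3.45 without summits within 25 bp of the TSS. Of the 9 summits, 7 were in exons. The 10 matches at these summits lay on both sides of the TSS, 5 upstream and 5 downstream of it. Kyat and RpS29 have the DRE downstream of the TSS and RpS15Aa has it just upstream, as the windows below show with the element in capitals.
Kyat, chr3R:11822471-11822500, minus strand: tggtcctagacTATCGATAacagtgcaaac
RpS29, chr3R:9778046-9778075, plus strand: atcgtggaaaaTATCGATActgccaccccc
RpS15Aa, chrX:13337695-13337724, minus strand: gtccggctaacTATCGATAggcacgttgag

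Motif 1, another core promoter element, was within 100 bp of 7 downstream summits (3.95%) and 22 upstream ones (1.65%), against 3.25% of all TSSs. The replicates' own lists gave 1.75%, 2.82% and 2.76% downstream and 1.94%, 1.97% and 1.75% upstream, with a difference of 0.56 ± 0.65 percentage points (SD, n = 3, exact permutation p = 0.5). Within 200 bp of the summit the difference in the reproducible list was -0.240 percentage points, against 2.31 within 100 bp, and with promoters of 1000 bp it was 0.35. Only 1 of the 7 matches lay wholly downstream of the TSS. The element Ohler 7 was at 10 downstream summits (5.65%) and 100 upstream ones (7.49%), against 6.80% of all TSSs, and Ohler 6 at 0 and 14 (1.05%), against 1.43%. GAGAGAG, bound by the GAGA factor Trl, was at 5 (2.82%) and 61 (4.57%), against 4.69%. TAATTA, the core bound by many homeodomain proteins, was at 33 (18.6%) and 248 (18.6%), against 9.39% of all TSSs. It was at 20.5% of all 5357 summits and 20.0% of those with no protein-coding TSS, so its share is not particular to either side. For every element, the share of all TSSs is from windows centred on the TSS, not at the summits' distances.

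Some downstream summits lay between start sites of the same gene. Another TSS further downstream was present within 500 bp of the summit at 54 of 177 (30.5%, interval 23.8 to 37.9), in all 54 cases of the same gene, a median of 145.5 bp away (30 to 493 bp). The replicates' own downstream summits gave 27.6%, 28.2% and 28.7%. The share was not computed for upstream summits or for all TSSs, so nothing particular to downstream summits is read from it. Another TSS was at 41 of 93 exon summits and 13 of 80 intron summits. It was at 33 of 61 summits within 100 bp of the nearest TSS, against 0 of 36 at 401 to 500 bp. The rule bears on both contrasts, so neither is read as a result. Another TSS must lie further from the summit than the nearest one and within 500 bp, which leaves less room further in. PNPase, GstE13 and CG9399, the 3 strongest, all had one, 94, 131 and 182 bp beyond the summit. Relative signal was higher at the 54 than at the other 123, with log2 ratios of 0.08, 0.32 and 0.23 (mean 0.21 ± 0.12, SD, n = 3), higher in 3 of 3 replicates (exact permutation p = 0.25).

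The nearest TSS was the most upstream one of its gene for 95 of 177 downstream summits (53.7%, interval 46.0 to 61.2) and for 930 of 1335 upstream summits (69.7%, 67.1 to 72.1). For scale, the annotation holds 13945 protein-coding genes and 19253 TSS positions. No share over all TSSs matched to the summits is given, so the difference is not read as a result. At the other 82 downstream summits, transcripts of the gene also start further upstream. A non-coding TSS on the other strand lay within 500 bp of 13 downstream summits (7.34%) and 67 upstream ones (5.02%). Another reproducible summit lay upstream of the same TSS at 15 of the 177. By mean relative signal the downstream summit was the stronger one in 8 of these pairs and the upstream one in 6, and 1 pair was not present in all replicates. Some pairs were far apart. CG9399 had a mean relative signal of 5.03 ± 0.58 downstream and 0.695 ± 0.136 upstream (SD, n = 3). Cyt-b5, chosen after its values were seen, had 0.850 ± 0.106 downstream and 4.03 ± 0.54 upstream.

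Genes of the ecdysone cascade held 5 of the summits, at 4 of the 32 listed genes (12.5%), against 175 of all 13945 protein-coding genes (1.25%). The list was drawn up with results of these data known, so nothing particular to it is read from the share. Eip75B encodes the E75 nuclear receptor, which is known in flies to bind Hr3 and repress its activity. Its stronger summit, 23 bp past one of its TSSs, had relative signals of 2.34, 2.59 and 1.71, and its other summit, 106 bp past another TSS, had 1.15, 0.798 and 1.02. The stronger one lay above the weaker in all 3 replicates, but replicate 1 placed it 24 bp upstream of the TSS. The weaker lies in GC-rich sequence (66.3% GC) with runs of GA, shown here with the searched element in capitals.
Eip75B, chr3L:17971296-17971325, minus strand: ggagtggaggccGAGAGAGcgagagagcga

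Eip63F-1, an ecdysone-induced gene for a calcium-binding protein, had 1.86, 1.60 and 1.60 in an intron 462 bp in. The orphan receptor gene Hr78 had 1.16, 1.46 and 1.49 in an intron, and all replicates put the summit 86 to 95 bp downstream. The gene ftz-f1 encodes a nuclear receptor that Hr3 is known to activate at the onset of metamorphosis. It had 1.43, 0.958 and 1.05 at 14 bp, with the summit 50 bp upstream of the TSS in replicate 1 and 5 bp upstream in replicate 3. Of these genes, Eip63F-1 and Hr78 were the ones placed downstream by all replicates, together with the weaker Eip75B summit. Eip75B, Hr78 and ftz-f1 were also the 3 of 21 nuclear receptor genes with a downstream summit. The Hr78 window, at 9.90% GC, was the lowest in GC of all downstream summits and is shown for that reason, with runs of 6 or more A or T in capitals.
Hr78, chr3L:21497040-21497140, minus strand: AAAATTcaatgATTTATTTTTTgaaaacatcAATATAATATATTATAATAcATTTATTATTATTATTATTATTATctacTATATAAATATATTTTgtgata

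Some of the other lists held downstream summits and most held none. These lists too were drawn up with results of these data known, so nothing particular to them is read from the shares. Of 92 cytoplasmic ribosomal protein genes, 4 had a downstream summit (4.35%, against 1.25% of all protein-coding genes), RpL26, RpS15Aa, RpS23 and RpS29. An upstream summit was at 23 of the 92 (25%), against 8.86% of all protein-coding genes. RpL26 had relative signals of 1.98, 1.20 and 1.52 in an intron at 65 bp, whereas the other 3 lay in exons within 18 bp of the TSS and had mean relative signals of 0.645 to 0.910. Replicates 2 and 3 placed the RpS23 summit 32 and 49 bp upstream of the TSS. Replicate 1 placed the RpS29 summit 15 bp upstream. Of the 38 insulator and core promoter factor genes, Trl (1.56, 2.03 and 2.19) and CTCF (0.613, 0.494 and 0.859) had a downstream summit (5.26%). Of the 17 clock genes CkIIbeta, the regulatory subunit of casein kinase 2, had one (5.88%), with 0.858, 0.446 and 0.690. None was found among the 48 proteasome, 73 mitochondrial ribosomal protein, 87 oxidative phosphorylation, 44 translation initiation, 32 aminoacyl-tRNA synthetase, 20 autophagy, 33 vacuolar ATPase, 8 Hox, 95 cuticle protein or 25 insulin and TOR genes. At the background of 1.25% of genes each of these lists would hold about 1 gene or none, so their zeros are not a result about them.

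At the lower edge of the rule, the nearest summits inside it were those of CG2811, Sqor and RpS29, each 2 bp downstream, with mean relative signals of 2.02, 1.29 and 0.910. Those just outside were the 5 at the TSS (CG43401, CG33695, Ufsp1, eIF2A and RpL7A) and those of CG30428, Gmppb and MFS14, 1, 1 and 5 bp upstream. At the upper edge the last summits inside were those of CG8128, aru and CG15247 at 489, 490 and 496 bp, and the next ones outside were those of DopEcR, omd and CG31523 at 510, 514 and 520 bp. Their mean relative signals were 2.51, 1.97 and 0.996 inside the limit and 0.799, 0.709 and 1.59 outside it.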

How the data were processed

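Peaks of GFP-tagged Hr3 from 3 biological replicates were used as deposited, on dm6. Per the text files beside the samples, relaxed peaks came from the authors' calls on single replicates and on pooled reads, and the reproducible list from those by the irreproducible discovery rate. For the aligner, caller, settings and threshold: not given in the sources used here. Those text files name a control, which was not analysed here. The deposited signal value, the authors' peak strength, is never negative and its scale differs between lists, so each replicate was divided by its own median. The summit is the peak start plus the deposited offset, written 1-based.

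The nearest TSS, the annotation of the summit base (coding, then other exon, then intron, over all transcripts), GC content within 50 bp and 12 sequence elements within 100 bp on both strands were computed with Python 3.11.15, NumPy 2.4.6 and SciPy 1.17.1 from the dm6 sequence of RefSeq and Ensembl release 115. The length of the sequence was compared with the peaks' coordinates arm by arm. Figures were drawn with matplotlib 3.10.9. Peaks are not replicates: classes were compared within each replicate and tested by the exact two-sided sign-flip permutation test over 3 replicates, which cannot give a p below 0.25. Intervals are 95% exact (Clopper-Pearson), cover counting error only, and limits of zero stand for 3 counts. The labels call the replicates biological and name no separate cultures, so the spread may be partly technical.

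The members, the 15 gene lists, the elements and the tests were chosen with earlier results of these data known. Named genes were the 25 strongest members seen in all replicates, the strongest 3 of each annotation class, the strongest 4 with an element within 50 bp, those of the ecdysone and nuclear receptor lists, the strongest 3 of each other list and those next to the limits of the rule. Older symbols (Pita, Zw5, dbt) were replaced by current ones, and 3 (Z4, Tor, Lobe) were not matched. Alternatives were the stronger 50% of the list, one TSS per gene, other promoter widths and windows, summits over 25 bp from the TSS, other matching of replicate peaks and leaving out each replicate. The code was tested on simulated data.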

Additional observations from a re-analysis of the deposited data

How the results depend on the processing

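Each result was recomputed under the alternatives that bear on it: the list, TSS set, promoter width, distance minimum and left-out replicates for all 10 results, and windows, matching of replicate peaks, rank scale and the same-side restriction only for the results they touch. Of the values without a test, 29 stayed within the replicate SD (for the count, within 1.5 times; for the share downstream in all replicates, within its interval) and 26 moved further. Of the differences between downstream and upstream summits, 40 kept their sign and 6 changed it, and a kept sign does not mean an unmoved size. The GC difference, 3.22 percentage points, ranged from 1.5 with promoters of 1000 bp to 4.62 with 200 bp and was 1.96 for summits on the same side in all replicates. The log2 signal ratio reached -0.153 with the stronger 50% of the list, the DRE difference -3.45 without summits within 25 bp of the TSS, and the Motif 1 difference 0.35 with 1000 bp. With the stronger 50% of the list there were 86 downstream summits, at a median distance of 143 bp, downstream in all replicates for 88.4%, with another TSS further downstream at 39.5% and a DRE difference (downstream minus upstream share) of 0.402 instead of -0.983 percentage points. With only the most upstream TSS of each gene, 14.5% of one-sided summits lay downstream, 37.6% of these in introns and 0.588% with another TSS, which that choice removes by construction. With promoters of 200 bp the median distance was 59.5 bp, introns held 15.9%, all replicates kept 67.1% downstream, another TSS followed at 40.0% and the log2 signal ratio to upstream summits was 0.042 instead of -0.045. With 1000 bp there were 354 downstream summits, 20.0% of the one-sided ones, at a median of 582.5 bp, with 91.0% downstream in all replicates, 70.6% in introns and 19.8% with another TSS. Leaving out summits within 25 bp of the TSS gave a median of 199 bp, 90.1% downstream in all replicates, 53.0% in introns and 25.8% with another TSS. The DRE difference was 0.503 within 50 bp of the summit and the Motif 1 difference -0.240 instead of 2.31 within 200 bp, so no direction is given for either.

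Each replicate was left out in turn by taking the mean over the other replicates' own strongest peaks. No reproducible list was rebuilt, so these values come from other peaks than those of the list. They were 179 to 204.5 downstream summits, a median distance of 144.25 to 158.5 bp and 38.5% to 43.3% in introns. Another TSS followed at 27.9% to 28.5%, and the GC difference was 2.48 to 3.06 percentage points. The DRE difference ranged from -0.954 to 0.514, being 0.514 without replicate 2 and 0.311 without replicate 3. Summits 1 bp nearer the peak start, an alternative chosen after seeing the data, gave 178 downstream summits. No paired analysis was possible because all samples belong to 1 group. The cause of these changes was not tested except where stated. Depth is unknown; the number of summits limits the shares of rare elements, and the fragment length limits the side of summits near the TSS.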
